A study of Homo sapiens with 12 samples.

Results

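The cytosolic ribosomal protein genes were chosen by symbol. Genes of the deposited table were taken where the symbol was RPL or RPS, a number and, in some, one of the endings A, X, L, AL or L1, or was RPLP0, RPLP1, RPLP2 or RPSA. This gave 85 of the 60240 genes listed, and no measured value entered the choice. They are 31 genes of the small subunit, 43 of the large subunit, 3 of the stalk (RPLP0, RPLP1 and RPLP2) and 8 paralogues, which are close or diverged relatives of another of the genes. FAU, which encodes a ribosomal protein fused to a ubiquitin-like protein, has another kind of symbol and is given separately.

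The RNA came from HL-60, a line of human promyelocytic leukaemia cells, of wild-type genotype. Cells were seeded in 6-well plates at 100000 per mL and were given 100 nM decitabine at 0, 24 and 48 h, or only its solvent DMSO, and RNA was taken at 6, 72 and 120 h. Decitabine, an analogue of deoxycytidine, enters DNA during replication and captures the DNA methyltransferases there. The 6 h cells had therefore received 1 addition and the later cells all 3. Values were analysed for 11 libraries, 2 in each of decitabine 6 h, DMSO 6 h, decitabine 72 h, decitabine 120 h and DMSO 120 h, and 1 in DMSO 72 h, whose other library was not analysed here. The duplicates were wells of 1 line, not stated to be separate cultures, and the p-values therefore cover the spread between wells alone. All 8 genes checked as HL-60 markers were present in every library, MPO at 86060 to 178300 normalised counts, whereas CD3E, MS4A1, EPCAM, COL1A1 and HBB were at 5.46 or less. PECAM1, checked as an endothelial marker, was at 448 to 1875.

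A ribosome holds 1 copy of most of its proteins, so cells make the proteins of both subunits in matched amounts. The mRNAs of most ribosomal proteins begin with a cytosine followed by a run of pyrimidines, the 5′ terminal oligopyrimidine or 5′ TOP motif, through which mTOR signalling controls their translation. Their transcription is known to depend on MYC among other factors, and growing leukaemia cells hold these mRNAs at very high levels.

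The starts of 68 of the 85 genes were read from RefSeq's promoter sequences on GRCh38.p14, and a start run was counted where the annotated first base was C and at least the next 4 bases were C or T. Such a run was found in 43 of the 68 genes (63.2%), against 4.07% of the 35116 promoters in the set. It was present in 17 of 24 small-subunit genes, 22 of 35 large-subunit genes, 3 of 3 stalk genes and 1 of 6 paralogues. The windows below, 30 bases with the annotated start at base 11, show genes whose values are given further on. Capitals mark the run that begins at the start. RPL26 (chr17:8383174-8383203, minus strand), RPL22 (chr1:6199576-6199605, minus), RPL38 (chr17:74203668-74203697, plus), RPL31 (chr2:101002279-101002308, plus) and RPLP0 (chr12:120201092-120201121, minus) hold the run. Of the paralogues, RPL22L1 (chr3:170870176-170870205, minus) holds it, while RPL26L1 (chr5:172958719-172958748, plus) and RPL7L1 (chr6:42879606-42879635, plus) do not.
RPL26: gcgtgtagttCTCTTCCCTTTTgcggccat
RPL26L1: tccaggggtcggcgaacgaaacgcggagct
RPL7L1: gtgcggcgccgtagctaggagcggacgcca
RPL22: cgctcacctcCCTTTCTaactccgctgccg
RPL22L1: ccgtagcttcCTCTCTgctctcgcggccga
RPL38: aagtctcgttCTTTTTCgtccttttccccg
RPL31: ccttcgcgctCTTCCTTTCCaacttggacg
RPLP0: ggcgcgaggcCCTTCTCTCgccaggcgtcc
The annotated start is 1 position per gene, and no run in a window says only that these letters are not there. The letters CACGTG, an E-box that reads the same on both strands, were in 4 of the 68 promoters (5.88%) and in 7.26% of all promoters, each searched over 300 bases.

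The 85 genes together held a lower share of the normalised counts in decitabine cells at 120 h than in DMSO cells. The share was 8.46% and 8.38% in the DMSO 6 h libraries, 8.51% and 8.16% in decitabine 6 h and 8.17% in DMSO 72 h. It was 7.71% and 6.73% in decitabine 72 h, 7.30% and 6.90% in DMSO 120 h, and 6.40% and 6.71% in decitabine 120 h. The share in DMSO cells was itself lower at 120 h than at 6 h, and the 120 h groups did not overlap. A transcript listed as FP671120.7 took 3.89 to 10.9% of the normalised counts in the 120 h libraries and 5.25% in decitabine 72 h replicate 1, against 0.0424 to 0.794% in the others. With that transcript and the mitochondrial mRNAs left out of the total, the ribosomal share at 120 h was 6.97% and 7.03% with decitabine and 8.01% and 7.80% with DMSO. The mean DMSO share was then 8.507% at 6 h and 7.9% at 120 h, against 8.42% and 7.096% over all counts, a smaller fall with time. A share is relative to all other RNAs and gives no amount per cell. In bulk RNA, fewer cells with high levels, less of these RNAs per cell and more of other RNAs cannot be told apart.

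**Figure D1:**
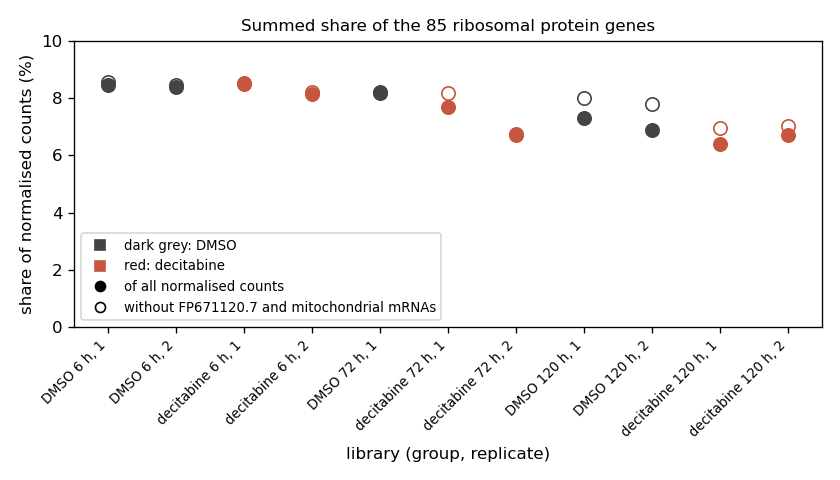
Summed share of the 85 ribosomal protein genes in the normalised counts (vertical axis, %) in each of the 11 libraries (horizontal axis), over all counts (filled points) and without FP671120.7 and the mitochondrial mRNAs (open points), DMSO in dark grey and decitabine in red. The decitabine 120 h libraries, at 6.40% and 6.71%, lie below the DMSO 120 h libraries, at 7.30% and 6.90%, and the gap is wider in the open points.

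A total of 84 of the 85 genes had at least 10 normalised counts in at least 2 libraries and were tested. RPL10L, a paralogue of RPL10 known from testis, did not pass, with 3.46 and 2.07 in the decitabine 72 h libraries, 0.712 in decitabine 120 h replicate 2 and a listed 0 in the other 8. RPL3L, the muscle paralogue of RPL3, passed only through decitabine libraries.

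Decitabine 72 h replicate 2 stood apart from every other library in these genes. On the first principal component of the tested ribosomal protein genes, which held 59.3% of the variance, it lay at 9.50 and the other 10 libraries between -1.999 and 0.598. The median absolute log2 difference between the decitabine 72 h replicates was 0.93 over these genes and 0.59 over all 16152 genes tested. In the other pairs the ribosomal value was 0.05 (decitabine 120 h), 0.08 (DMSO 6 h), 0.21 (DMSO 120 h) and 0.24 (decitabine 6 h). In 40 of the 84 genes the 72 h replicates differed by more than 2-fold, 33 of them lower and 7 higher in replicate 2, against 26.1% of all genes. Because all groups shared 1 estimate of the spread, this pair also widened the errors at 6 and 120 h, and results are given with and without that library.

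**Figure D2:**
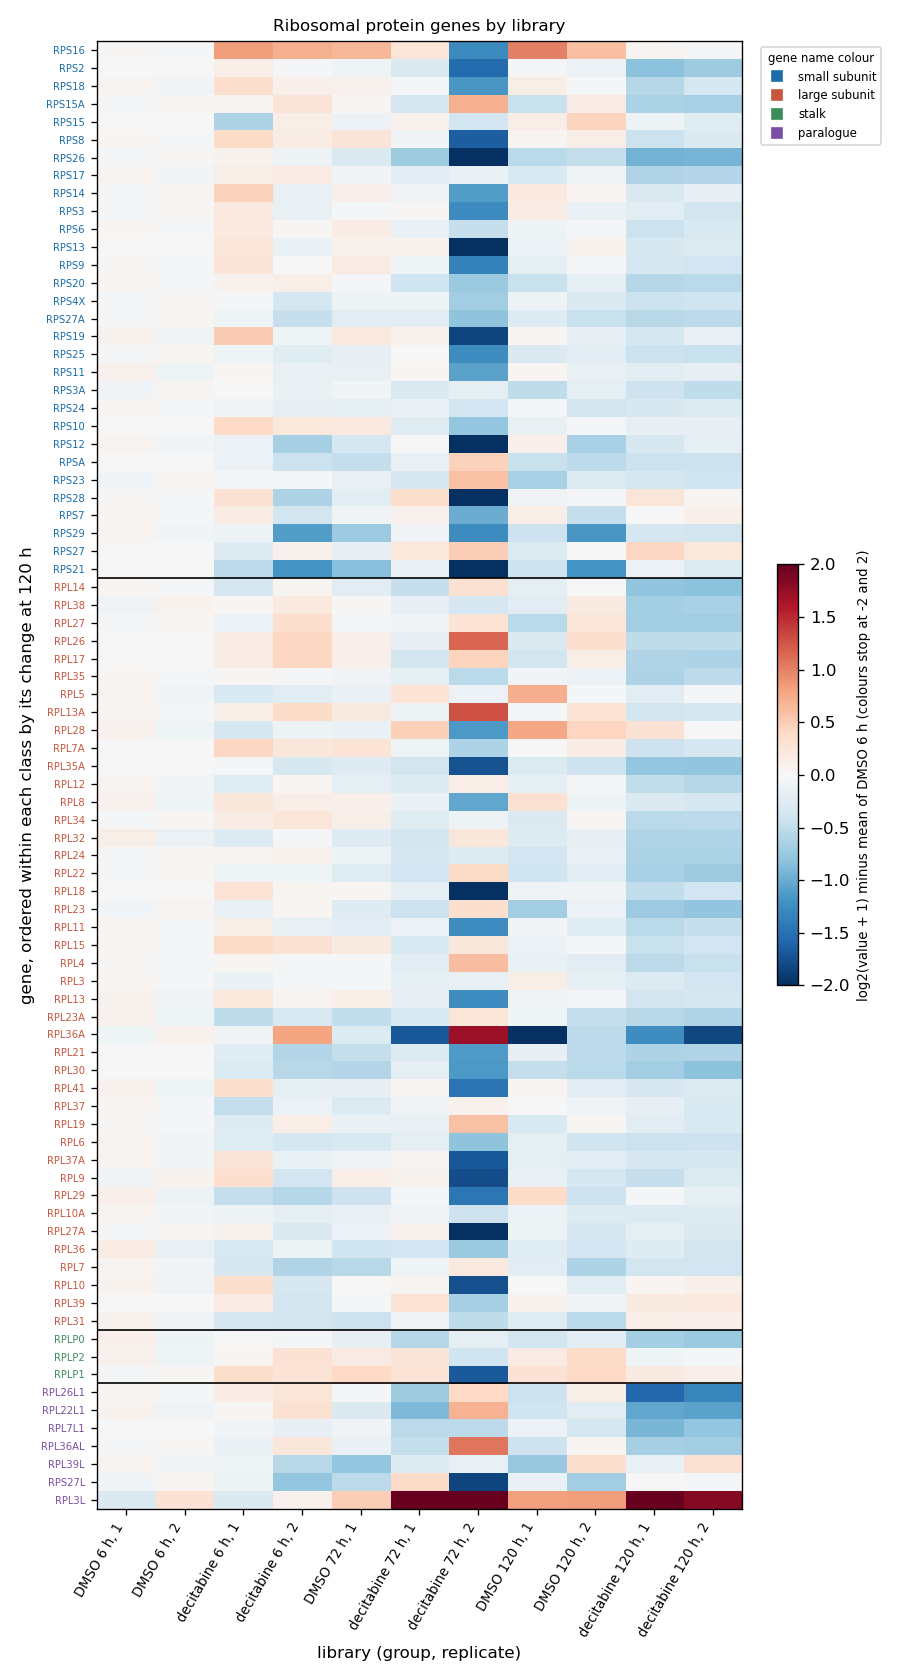
Ribosomal protein genes (rows, 82 of the 84 tested, name coloured by class) in each library (columns), as log2(value + 1) minus the mean of the DMSO 6 h libraries, red for higher and blue for lower. The column of decitabine 72 h replicate 2 holds the deepest reds and blues together, and both decitabine 120 h columns are pale to middle blue for most genes, while RPL3L at the foot is red there.

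At 120 h most ribosomal protein genes were modestly lower with decitabine, and few passed the test. RPL26L1, RPL38 and RPL7L1 fell, and none of the 84 rose, with limma adjusted p-values under 0.05. Over all genes tested at 120 h, 6.00% were called lower and 9.91% higher, so the 3 of 84 (3.57%) were a smaller share than the background. At an unadjusted p under 0.05 there were 10 of the 84, against 30.2% of all genes. The log2 fold change, on log2(value + 1), was below 0 in 67 of the 84 genes (79.8%) against 45.8% of all genes. Its median was -0.29 (middle range -0.44 to -0.09) against 0.07 over all genes. Under quantile normalisation the median was -0.17 with 57 of 84 below 0, but the median of all genes moved to -0.10, and the gap between both narrowed from -0.36 to -0.07. Under that scaling 1 member was called lower, RPL26L1, and 1 higher, RPS27, and the calls over all genes were 1513 higher and 1465 lower, against 1601 and 969. In 58 of the 84 genes both decitabine values lay below both DMSO values, against 30.6% of all genes, and in 10 both lay above, against 36.1%. Those 58 were 32 large-subunit, 19 small-subunit, 3 stalk and 4 paralogue genes.

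Without decitabine 72 h replicate 2, 27 of the 84 genes fell at 120 h and RPL31 rose (limma adjusted p under 0.05), against 14.8% of all genes lower and 15.8% higher. The fold changes were the same, since both 120 h groups kept their libraries, and only the estimate of the spread was smaller. Without replicate 1 in its place, 27 were again lower and 1 higher, against the same shares of all genes. The 27 held RPL26L1, RPL38 and RPL7L1 and comprised 16 large-subunit, 7 small-subunit, 1 stalk and 3 paralogue genes. MYC was at 3444 and 3033 normalised counts in decitabine 120 h against 14185 and 13100 in DMSO 120 h, and its part in these values was not tested.

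**Figure D3:**
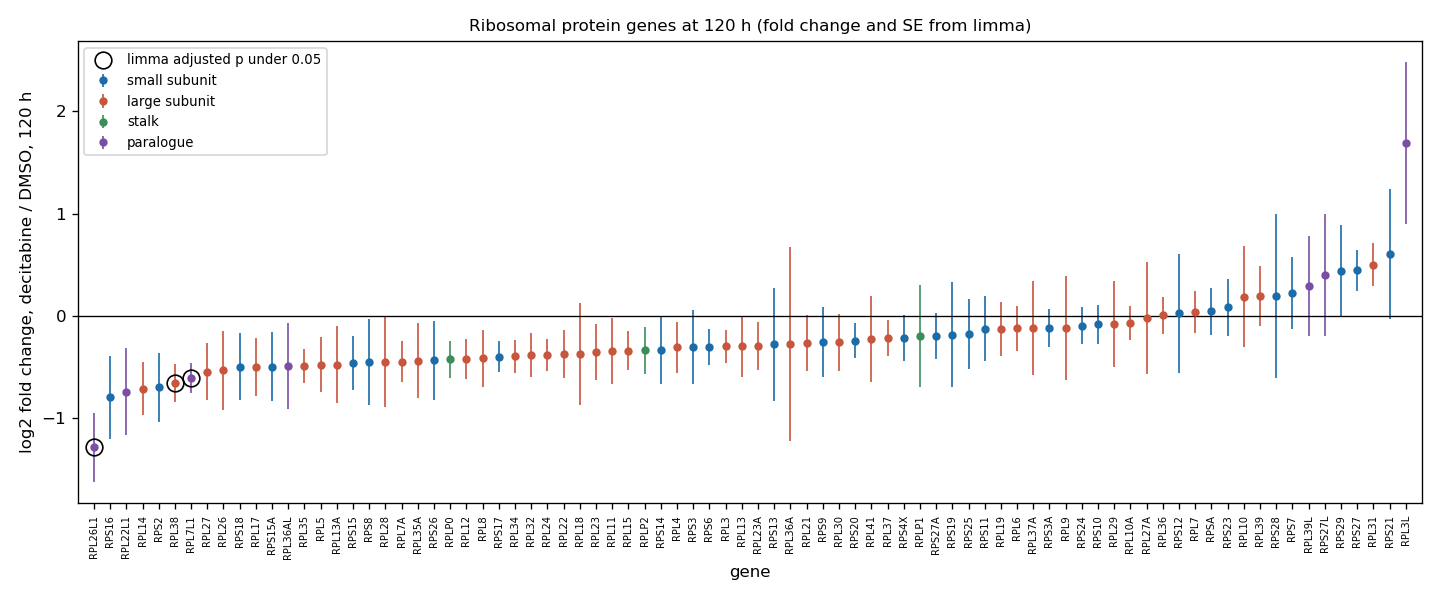
Log2 fold change of decitabine over DMSO at 120 h with its standard error (vertical axis) for 82 of the 84 tested ribosomal protein genes in order (horizontal axis), coloured by class, with the 3 genes called by limma ringed. Of the points, 66 lie below 0 (67 of all 84, or 57 under quantile normalisation), and most error bars of the small effects cross 0.

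RPL26L1, the paralogue of RPL26, was lowest in the decitabine 120 h libraries. Its values there were 192 and 231 normalised counts (211 ± 27.4, SD, n = 2), against 426 and 622 in DMSO 120 h (524 ± 139, SD, n = 2). Elsewhere it lay at 585 and 560 in DMSO 6 h, 633 and 679 in decitabine 6 h, 557 in DMSO 72 h and 348 and 753 in decitabine 72 h. The 120 h groups did not overlap, and the decitabine 72 h pair spanned the DMSO 72 h value. The log2 fold change at 120 h was -1.29 (SE 0.34, 95% interval -2.06 to -0.51, limma adjusted p = 0.0367). The gene lies on chromosome 5 from 172958729 to 172969771 (GENCODE 29, GRCh38).

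RPL7L1, a diverged relative of RPL7, was at 3093 and 3390 normalised counts in decitabine 120 h (3242 ± 210, SD, n = 2). In DMSO 120 h it was at 5335 and 4569 (4952 ± 542, SD, n = 2), and in all 5 libraries of the 6 h groups and DMSO 72 h it was at 5154 to 5819. The decitabine 72 h libraries held 4028 and 4026, so this gene was lower than DMSO in both of them and alike in both. At 120 h the log2 fold change was -0.61 (SE 0.15, interval -0.95 to -0.27, limma adjusted p = 0.0262), and at 72 h it was -0.45 (SE 0.18, limma adjusted p = 0.243). RPL7L1 lies on chromosome 6 from 42879618 to 42889925.

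RPL38, a small protein of the large subunit known from mouse work for its bearing on Hox mRNA translation, was at 9879 and 10027 normalised counts in decitabine 120 h (9953 ± 105, SD, n = 2). DMSO 120 h held 13702 and 17917 (15809 ± 2981, SD, n = 2), and the other libraries 12465 to 17983. The lowest of those 7 was decitabine 72 h replicate 2, still above both decitabine 120 h libraries. The log2 fold change was -0.65 (SE 0.18, interval -1.07 to -0.24, limma adjusted p = 0.0435). RPL38 lies on chromosome 17 from 74203582 to 74210655. Each of the 3 calls was lost without any 1 of the 120 h libraries (limma adjusted p 0.0529 to 0.245) and without most 6 h libraries (0.05 to 0.0819), while RPL7L1 kept its call without decitabine 6 h replicate 2 (0.0498).

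By class, the median log2 fold change at 120 h was -0.20 in the small subunit, where 22 of 31 were below 0, and -0.34 in the large subunit, where 38 of 43 were. No test of the difference between the classes was made. Of the small subunit, RPS16, whose tail reaches the peptidyl-tRNA, stood lowest. Its values were 1026 and 966 normalised counts in decitabine 120 h and 1995 and 1498 in DMSO 120 h, but only 1009 and 974 in DMSO 6 h. The decitabine 120 h values were thus close to those of the DMSO cells at 6 h, and the 120 h DMSO values were the ones that stood higher. Its log2 fold change of -0.80 (SE 0.41) had a limma adjusted p of 0.235 over all libraries and 0.00492 without decitabine 72 h replicate 2.

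RPS2, which lines the channel where mRNA enters, was at 4675 and 5009 normalised counts in decitabine 120 h against 8133 and 7568 in DMSO 120 h and 8206 and 8255 in DMSO 6 h. The decitabine 120 h libraries were below all others but decitabine 72 h replicate 2, at 2831. Without that library RPS2 fell by 0.70 (log2) with a limma adjusted p of 0.00127. RPS18 and RPS26, with log2 fold changes of -0.50 and -0.43, were also called lower in that fit (limma adjusted p = 0.0167 and 0.0107). RPS26 was at 1084 and 1103 in decitabine 120 h, 1451 and 1502 in DMSO 120 h and 2070 and 2127 in DMSO 6 h, so its DMSO level at 120 h was already under that at 6 h.

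RPSA, the small-subunit protein also known as a laminin receptor, did not follow the others at 120 h. It held 40264 and 40296 normalised counts with decitabine and 40136 and 38024 with DMSO, a log2 fold change of 0.04 (interval -0.48 to 0.57). RPS27A, whose protein is made as a fusion with ubiquitin, was at 8968 and 9140 against 11075 and 9709, a log2 fold change of -0.20 (limma adjusted p = 0.612). RPS4X, encoded on the X chromosome, was at 18394 and 18695 against 22950 and 20146, and its log2 fold change was -0.21 (limma adjusted p = 0.576). In RPS27A and RPS4X the groups did not overlap, but neither was called with or without the 72 h library.

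In the large subunit, RPL14 was at 15158 and 14836 normalised counts in decitabine 120 h and 22881 and 26309 in DMSO 120 h, a log2 fold change of -0.71. Its limma adjusted p was 0.104 over all libraries and 0.00623 without decitabine 72 h replicate 2. RPL35 was at 4715 and 5066 against 6974 and 6728. Its decitabine 120 h values were below all other libraries except decitabine 72 h replicate 2, at 4969. Its log2 fold change was -0.49, with a limma adjusted p of 0.0825 over all libraries and 0.00374 without that library.

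RPL5 and RPL11, which with the 5S RNA form a particle that can bind MDM2, differed in how tight they were. RPL5 was at 40991 and 46715 normalised counts in decitabine 120 h and at 78924 and 46944 in DMSO 120 h. The gap rested on DMSO replicate 1, since the second DMSO value was next to the higher decitabine value. RPL11 was at 12154 and 12733 against 16824 and 14788, with log2 fold changes of -0.48 for RPL5 and -0.34 for RPL11, neither called in either fit.

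The genes of the stalk proteins, which recruit translation factors to the large subunit, were all lower in decitabine 120 h. In each the groups did not overlap, against 30.6% of all genes lower without overlap. RPLP0, the stalk's base, was at 15315 and 14645 normalised counts against 19167 and 21062 in DMSO 120 h, a log2 fold change of -0.42 (limma adjusted p = 0.156, and 0.0134 without decitabine 72 h replicate 2). RPLP2 was at 12247 and 12707 against 14584 and 16994 (log2 fold change -0.34). RPLP1 was at 4077 and 3864 against 4375 and 4731 (-0.20), and neither was called in either fit.

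Of 19 genes in a list of those tied to Diamond-Blackfan anaemia or the 5q deletion, 14 were below 0 at 120 h (45.8% of all genes) with a median of -0.34. None was called over all libraries, against 6.00% of all genes lower and 9.91% higher. Without decitabine 72 h replicate 2, 6 were lower and 1, RPL31, was higher, against 14.8% of all genes lower and 15.8% higher. RPS14, the gene of the 5q deletion, was at 1988 and 2162 normalised counts in decitabine 120 h and 2762 and 2476 in DMSO 120 h. RPS19, the gene most often mutated in Diamond-Blackfan anaemia, was at 4327 and 4965 against 5623 and 4925, and its groups overlapped. Their log2 fold changes were -0.33 and -0.18, with neither called.

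The genes with both decitabine 120 h values above both DMSO values were RPL31, RPL3L, RPL10, RPSA, RPS21, RPS27, RPS27L, RPL39, RPS29 and RPS28. RPL31, near the exit of the peptide tunnel, was at 52703 and 51701 normalised counts with decitabine and 40714 and 33366 with DMSO. Its DMSO 6 h values were 50687 and 46044, so the decitabine 120 h cells stood near the 6 h level and the DMSO 120 h cells below it. The log2 fold change was 0.50 (SE 0.21, limma adjusted p = 0.144), and without decitabine 72 h replicate 2 RPL31 rose with a limma adjusted p of 0.0115.

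RPS21 was at 6574 and 5927 normalised counts in decitabine 120 h and 5357 and 3137 in DMSO 120 h, against 7227 and 7104 in DMSO 6 h. Its log2 fold change of 0.61 had an SE of 0.64. RPS27, a zinc-finger protein of the small subunit, was at 21126 and 18341 against 13083 and 15998, with 15875 and 15896 in DMSO 6 h. Unlike RPS21, it lay above both its DMSO 120 h and its DMSO 6 h values. Its log2 fold change was 0.44 (SE 0.20, limma adjusted p = 0.175), and it was 0.80 (limma adjusted p = 0.0132) under quantile normalisation.

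Paralogues and their parent genes are described together because reads of near-identical copies may be split between them. The level of RPL26L1 was 1.49% and 1.80% of that of RPL26 in the decitabine 120 h libraries and 2.84% and 2.72% in DMSO 120 h. In all DMSO and 6 h libraries the ratio was 2.72 to 3.22%, and it was 2.12% and 1.84% in decitabine 72 h. The ratio was thus lower in all 4 decitabine libraries of 72 and 120 h than in the other 7, decitabine 72 h replicate 2 included, although that library had the highest RPL26L1 value of all. RPL26 itself was at 12851 and 12832 normalised counts in decitabine 120 h against 15000.4 and 22913 in DMSO 120 h, a log2 fold change of -0.53 (limma adjusted p = 0.411).

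RPL7L1 stood at 14.8% and 16.2% of RPL7 in decitabine 120 h, 22.8% and 25.9% in DMSO 120 h, 15.8% and 13% in decitabine 72 h, 29.7% in DMSO 72 h and 20.5 to 28.9% at 6 h. As for RPL26L1, the 4 later decitabine libraries were the lowest. RPL7 itself was at 20936 and 20867 normalised counts in decitabine 120 h against 23423 and 17611 (log2 fold change 0.04). These ratios can be set side by side across libraries but not between gene pairs, since the values are not per length.

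RPL22L1, at 170 and 167 normalised counts in decitabine 120 h and 264 and 301 in DMSO 120 h, had a log2 fold change of -0.74. Its limma adjusted p was 0.290, and 0.00831 without decitabine 72 h replicate 2, which at 568 was its highest library. RPL22, at 8568 and 8207 against 10210 and 11526, had a log2 fold change of -0.37, with a limma adjusted p of 0.341 over all libraries and 0.0146 without that library. The ratio of RPL22L1 to RPL22 was 1.99% and 2.03% against 2.58% and 2.61% at 120 h, but 3.24% in decitabine 72 h replicate 2 and 1.83% in replicate 1.

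RPL36AL was at 2489 and 2428 normalised counts in decitabine 120 h against 2965 and 4024 (log2 fold change -0.49, limma adjusted p = 0.490). Its parent RPL36A ranged from 803 to 10425 over the 11 libraries, with 1351 and 909 in decitabine 120 h and 803 and 2234 in DMSO 120 h. RPS27L, known elsewhere as a p53 target, was at 780 and 765 against 711 and 483, and at 1019 and 218 in decitabine 72 h. None of these was called in either fit.

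RPL3L was at 10.2 and 3.39 normalised counts in decitabine 120 h, 13.04 and 3.98 in decitabine 72 h and 1.18 or less in every DMSO and 6 h library. Both later decitabine groups lay above all others, at levels of few counts, and the log2 fold changes of 2.27 at 72 h and 1.69 at 120 h were not called (limma adjusted p = 0.265 and 0.194). Its parent RPL3 was at 7378 and 6785 in decitabine 120 h against 9667 and 7832. RPL39L, the testis paralogue of RPL39, ranged from 5.46 to 12.8 over all libraries, and RPL39 was at 3960 and 4000.3 against 3663 and 3312 at 120 h. RPL10, the parent of RPL10L, was at 1564 and 1641 against 1511 and 1311.

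**Figure D4:**
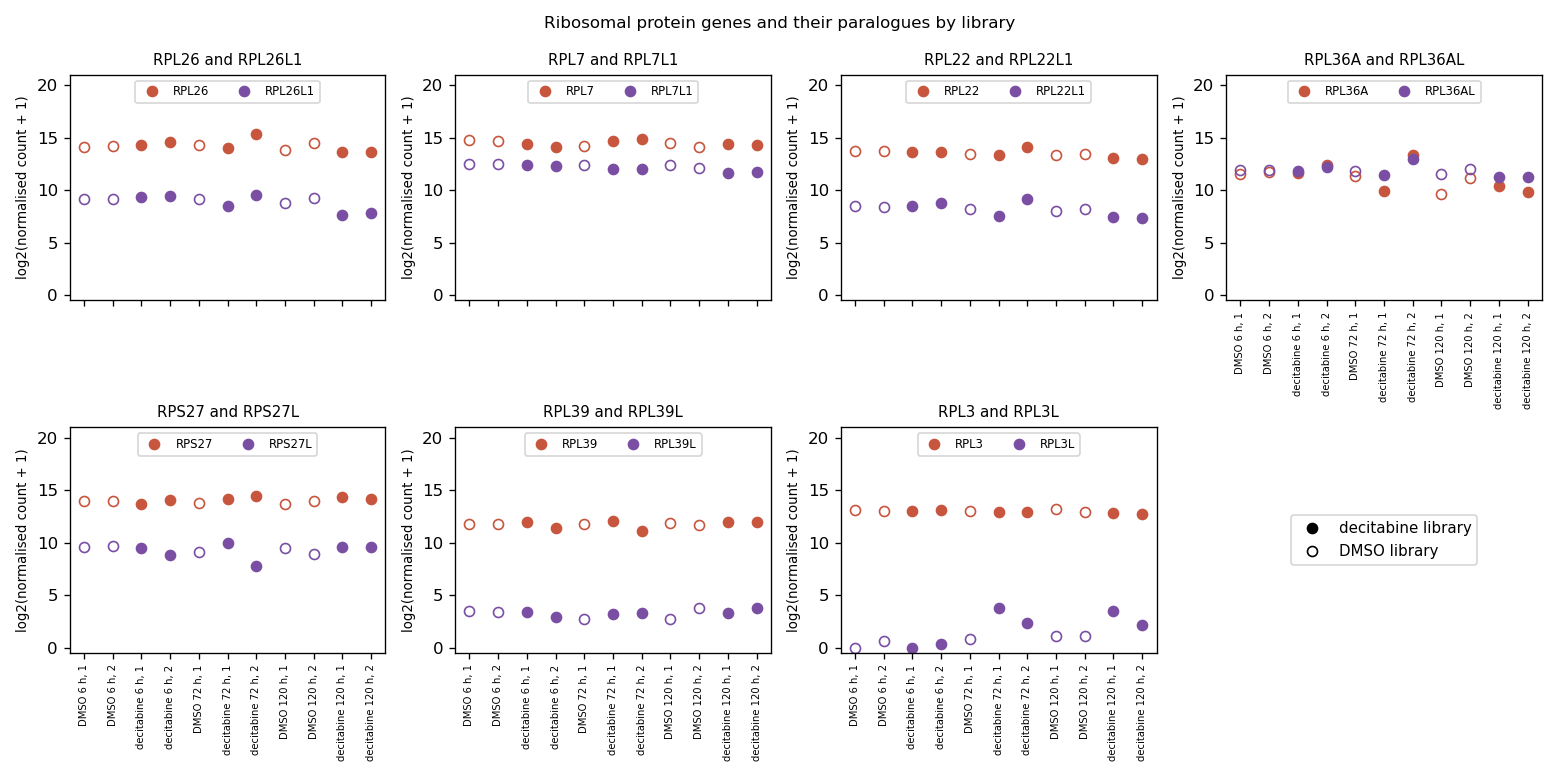
Log2(normalised count + 1) of 7 ribosomal protein genes (red) and their paralogues (purple) in each library, decitabine filled and DMSO open. RPL26L1 and RPL7L1 are lowest in the decitabine 120 h libraries, at 192 and 231 and at 3093 and 3390 normalised counts, RPL3L is near 0 except in the later decitabine libraries, and RPL36A varies from 803 to 10425.

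At 72 h the decitabine libraries gave different pictures, and no gene of the 84 was called, against 1.88% of all genes higher and 0.310% lower. At an unadjusted p under 0.05 there were 8, against 18.1% of all genes. With both libraries, 59 of 84 log2 fold changes were below 0 (44.4% of all genes), with a median of -0.22. Against the DMSO 72 h library, replicate 1 had 47 of 84 below 0, a median of -0.09, 1 gene more than 2-fold lower and 1 more than 2-fold higher. Replicate 2 had 58 below 0, a median of -0.54, 30 more than 2-fold lower and 5 more than 2-fold higher. In 47 of the 84 genes the replicates went opposite ways. Without replicate 2 none was called (2.83% of all genes higher and 1.67% lower) and 47 were below 0 (45.6% of all genes). Without replicate 1, 42 were lower and 12 higher, against 12.8% and 16.6% of all genes. In replicate 1, FP671120.7 took 5.25% of normalised counts and mitochondrial mRNAs 0.662%, against 0.106% and 0.260% in replicate 2 and 0.0943% and 0.386% in DMSO 72 h. MYC was at 3872 and 2839 normalised counts in both decitabine 72 h libraries and 11410 in DMSO 72 h, so the replicates were alike in that gene.

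Of the genes that differed between the replicates, RPS28 was at 403 normalised counts in replicate 1 and 46.5 in replicate 2, with 273 in DMSO 72 h. This small-subunit gene was higher than DMSO in one replicate and far lower in the other. RPL36A went the other way, at 983 and 10425 with 2659 in DMSO, and RPL26 was at 16403 and 40876 with 19684 in DMSO. Summed, the small-subunit genes held 2.90% of normalised counts in replicate 1 and 2.11% in replicate 2, and the large-subunit genes 4.75% and 4.53%, so the small subunit accounted for most of the gap between both libraries.

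The lowest log2 fold changes over both 72 h libraries were those of RPL18 (-1.196), RPS16 (-1.17) and RPS26 (-1.14), and the highest those of RPL3L (2.27), RPSA (0.64) and RPL7 (0.60). RPL18 was at 2781 and 721 normalised counts with 3247 in DMSO 72 h, so its value rested on replicate 2. RPS26 was at 1288 and 464 with 1710 in DMSO and was lower in both. RPSA was at 49059 and 75123 with 38910 in DMSO, and RPL7 at 25551 and 30862 with 18502, and these were higher in both replicates.

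**Figure D5:**
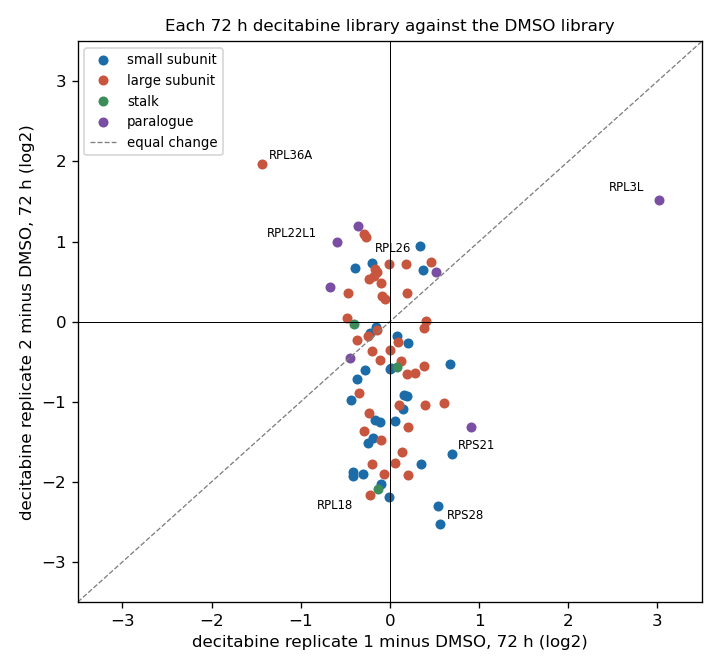
Log2 difference from the DMSO 72 h library in decitabine 72 h replicate 1 (horizontal axis) and replicate 2 (vertical axis) for the 84 tested genes, coloured by class, with the line of equal change dashed. The points are narrow along replicate 1 (median -0.09) and wide along replicate 2 (median -0.54), and 47 of them have opposite signs on the axes.

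At 6 h, after 1 addition of decitabine, no difference passed the test. None of the 84 genes, and none of all genes (0%), had a limma adjusted p under 0.05, and at an unadjusted p under 0.05 there were 0 of the 84 against 3.35% of all genes. The log2 fold changes were below 0 in 48 of the 84 (51.3% of all genes), with a median of -0.03. RPS21 was at 4974 and 3137 normalised counts in decitabine 6 h and 7227 and 7104 in DMSO 6 h, and RPS16 at 1772 and 1615 against 1009 and 974. These were the lowest and the highest of the 84, with log2 fold changes of -0.86 and 0.77, and in neither did the groups overlap, as in 42 of the 84 in all (24 lower against 20.8% of all genes, and 18 higher against 18.2%).

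Most of these genes were also slightly lower after longer culture in DMSO, with no call. From 6 to 120 h in DMSO, 68 of 84 log2 fold changes were below 0 (51.6% of all genes), with a median of -0.15 against -0.01 over all genes. None of the 84 had an adjusted p under 0.05 with limma, nor did any gene (0%), and at an unadjusted p under 0.05 there were 0 of the 84 against 5.36% of all genes. The DMSO 120 h libraries stand in both this comparison and the one with decitabine at 120 h. RPS29, RPS21 and RPL36A had the lowest values (log2 -0.79, -0.81 and -1.26) and RPL28, RPS16 and RPL3L the highest (0.60, 0.80 and 0.83).

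In decitabine cells from 72 to 120 h none of the 84 was called, against 0.124% of all genes higher and 0.00619% lower, and 42 of 84 were below 0 (47.7% of all genes). At an unadjusted p under 0.05 there were 15 (16.4% of all genes). Without decitabine 72 h replicate 2, 77 of 84 were below 0 (49.5% of all genes) with a median of -0.27, and again none was called (0.167% of all genes higher and 0.0495% lower). The decitabine effect at 120 h did not differ by the test from that at 72 h in any of the 84 or any other gene (0%), where 0 of the 84 and 6.33% of all genes had an unadjusted p under 0.05. Without decitabine 72 h replicate 1 in place of replicate 2, 23 of the 84 were lower and 36 higher from 72 to 120 h, against 16.8% and 15.3% of all genes. In the comparison of both effects 13 were then lower and 28 higher, against 10.3% and 7.65% of all genes. Against the effect at 6 h, 0 of the 84 differed, with 4.27% of all genes higher and 1.63% lower, and 9 of the 84 had an unadjusted p under 0.05 (21.5% of all genes). Without decitabine 72 h replicate 2, 16 of the 84 were lower and 2 higher in that test (limma adjusted p under 0.05), against 8.61% and 9.84% of all genes.

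Start runs and small nucleolar RNA genes, which had no part in the choice of genes, went with like values at 120 h. Genes with a start run had a median log2 fold change of -0.28, 35 of 43 below 0, and tested genes without it -0.30, 19 of 24 below 0. The 85 genes lay on 21 chromosomes, 12 of them on chromosome 19. In GENCODE 29, 28 of them held 60 small nucleolar RNA genes within their bounds. These hosts had a median of -0.30 (24 of 28 below 0) and the other 56 tested genes -0.27 (43 below 0). These medians are descriptions, with no test of a difference.

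For RPL17, RPL36A and RPS10 the annotation holds a read-through gene with the same exons, and how reads were split is uncertain. For RPS10, RPS10-NUDT3 is that gene. RPS10 alone was at 5162 and 5175 normalised counts in decitabine 120 h and 5238 and 5712 in DMSO 120 h, whereas summed with RPS10-NUDT3 it was at 9503 and 11136 against 16965 and 26209. The log2 fold change was -0.08 for RPS10 and -1.04 for the sum. For RPL36A, whose own value varied widely, the sum with RPL36A-HNRNPH2 ran from 11196 to 33607, and at 120 h it was 11280 and 11196 against 11818 and 15552 (log2 fold change -0.27 alone and in the sum). The sum of RPL17 and RPL17-C18orf32 had a log2 fold change of -0.55. Of 1205 ribosomal protein pseudogenes in the table, 78 were tested. The summed counts of all 1205 came to 1.2 to 1.83% of those of the 85 genes.

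Other genes of the translation machinery were lower at 120 h as well, several by more than the ribosomal protein genes. The lists were chosen by function. Of further proteins of the cytosolic ribosome, FAU was at 2007 and 2164 normalised counts in decitabine 120 h and 2944 and 2701 in DMSO 120 h. RACK1, which sits on the head of the small subunit, was at 11222 and 11450 against 14547 and 15688. Their log2 fold changes were -0.44 and -0.41, and neither was called over all libraries, but both were called lower without decitabine 72 h replicate 2 (limma adjusted p = 0.0122 and 0.00704).

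Of 6 elongation factors, all were below 0 and 1 fell (4 without decitabine 72 h replicate 2), against 6.00% of all genes lower (14.8% without it). EEF2, which moves the ribosome along the mRNA, was at 20738 and 24185 normalised counts in decitabine 120 h against 39171 and 40466, and fell by 0.83 (log2, SE 0.18, limma adjusted p = 0.0168). EEF1A1, which brings aminoacyl-tRNA to the ribosome, was at 232029 and 242106 against 244785 and 252310, a log2 fold change of -0.07. Of 29 initiation factors, 26 were below 0 and 7 fell (19 without decitabine 72 h replicate 2), against the same shares of all genes. EIF1AX, which acts at start-codon choice, fell by 1.00 (limma adjusted p = 0.00571). EIF5B, which joins the subunits, fell by 0.98 (limma adjusted p = 0.0306), EIF2S1, the alpha subunit of eIF2, by 0.98 (0.0437) and EIF4G1, the scaffold of the cap-binding complex, by 0.94 (0.0227). The others called over all libraries were EIF3B, EIF3I and EIF3M of the eIF3 complex.

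Of 16 regulators of 5′ TOP mRNAs, 13 were below 0 (45.8% of all genes) and 2 fell (5 without decitabine 72 h replicate 2), against 6.00% of all genes lower (14.8% without it). LARP1, which binds the 5′ TOP motif, was at 2629 and 2045 normalised counts in decitabine 120 h against 5127 and 4729, and fell by 1.09 (log2, limma adjusted p = 0.0177). EIF4EBP1, which encodes an mTOR target, was at 542 and 617 against 1139 and 1360.0, and fell by 1.10 (limma adjusted p = 0.00669). Of 9 chaperones of ribosomal proteins, all were below 0 and 2 fell (6 without decitabine 72 h replicate 2), against those same shares of all genes. Both of the 2 are known partners of RPS2. PDCD2L was at 110 and 92.2 normalised counts against 271 and 410, and fell by 1.71 (limma adjusted p = 0.00406), and PDCD2, at 1634 and 1637 against 2755 and 2842, fell by 0.77 (limma adjusted p = 0.00709). In these 4 genes the 120 h groups did not overlap, against 30.6% of all genes lower without overlap. Over all libraries, none of the genes in these 5 lists was called at 6 or 72 h. CNBP, of the list of 5′ TOP regulators, is named here after its values were seen. It was at 5230 normalised counts in decitabine 72 h replicate 1, 10257 in replicate 2 and 8050 in DMSO 72 h.

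The 78 genes of mitochondrial ribosomal proteins chosen by the symbols MRPL and MRPS were lower at 120 h in 72 cases. Their median log2 fold change was -0.64, against -0.29 for the cytosolic genes. Of these, 26 fell and none rose (54 fell without decitabine 72 h replicate 2), where 3 of 84 cytosolic genes fell (27 without it) and 6.00% of all genes were lower (14.8% without it). At 72 h their median was -0.51 with none called over all libraries, and -0.38 without decitabine 72 h replicate 2. At 6 h the median was 0.04. The difference between both sets was not tested.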

How the data were processed

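RNA was depleted of ribosomal RNA (RiboZero Gold), made into ScriptSeq v2 libraries and read as 50 bp single-end reads on a HiSeq 4000, per the labels' protocols. Per the submitters' processing notes, hg38, DESeq2, featureCounts, limma, Salmon 1.2.1 and STAR are named, without their roles. The annotation and its release are not stated in what was used here. What the authors deposited is a normalised signal for each gene, written as normalised counts in the text. Whole reads were not recovered from these values, so no count model was run, and the depth of each library was not estimated. Normalised totals were 12815698 to 15959030. The heading names 12 libraries and a name column over 13 fields that hold an identifier, a symbol and 11 values. Its first name was taken to stand over the symbols, which leaves DMSO 72 h replicate 2 without values, and every result rests on that reading. No column of values was left unmapped.

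Values were transformed to log2(value + 1), so fold changes of low genes are understated. Only the 16152 genes that reached 10 in 2 or more libraries were tested. limma 3.58.1 in R 4.3.3 fitted 1 mean per group over the 11 libraries (eBayes with a trend, 5 residual degrees of freedom, 8.42 with those borrowed), and 2-sided p-values were adjusted by Benjamini-Hochberg over all genes tested, with 0.05 as the threshold. The lone DMSO 72 h library was taken to vary as the others do. The fit was tested on simulated data in which a gene had the same spread in every library. It therefore did not test a pair as far apart as decitabine 72 h. Tables and plots used Python 3.11.15, pandas 2.3.3 and matplotlib 3.10.9. Gene positions came from GENCODE 29 by identifier without version, and start windows from RefSeq's GRCh38.p14.

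Named with values were the paralogues and parents, RPLP0, RPLP1, RPLP2, RPSA, RPS27A, RPS4X, RPL5, RPL11, RPS14, RPS19, called genes (the 10 largest where more than 20 were called one way) and the 3 highest and lowest at 72 and 120 h. RPS10, RPS28, RPL17, the extremes at 6 h and over time in DMSO, and the 10 genes higher without overlap were named after their values were seen. The genes and lists were chosen with earlier results of these data known. Alternatives were the trend, 2 scalings, pseudocounts of 0.5 and 5, no filter, a replicate block, fits of only the groups compared and leaving out each library, with sample weights and the read-through sums added after seeing the data. Some genes covered by these rules count in the totals but are not reported here by name.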

Additional observations from a re-analysis of the deposited data

How the results depend on the processing

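The number of ribosomal protein genes called at 120 h, 3 over all libraries, was 0 without a trend, 1 without a filter, 1 with each total set equal without FP671120.7 and the mitochondrial mRNAs, 21 with only the 120 h groups in the fit and 21 with sample weights. Leaving out 1 library at a time gave 0 to 28, with 28 only without either decitabine 72 h library. It was 3 with either other pseudocount and 2 under quantile normalisation. Leaving out 1 library gave 0 to 54 calls at 72 h, 0 to 59 from 72 to 120 h in decitabine, 0 to 41 for the effect at 120 h against 72 h and 0 to 18 for that against 6 h, where only the groups compared gave 18 and sample weights 10. The 54, 59 and 41 came without decitabine 72 h replicate 1, and the 18 without either decitabine 72 h library. The median at 72 h was -0.47 under quantile normalisation and -0.54 to -0.0905 with 1 library left out, against -0.22. Over the total without FP671120.7 and mitochondrial mRNAs, the mean share at 120 h was 7.001% in place of 6.557% with decitabine and 7.9% in place of 7.096% with DMSO. Counts at 6 h and over time in DMSO stayed at 0 in all of these, and the median at 120 h lay between -0.29 and -0.17. Of 1178 values of named genes under alternatives, 1071 kept direction and side of the threshold, 48 passed it, 33 no longer did, and 26 changed sign with neither value called. The cause of these changes was not tested.

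With the replicate number as a block, 2 genes were called at 120 h, without RPL38 (limma adjusted p = 0.0516), and the other comparisons stayed at 0. Deviations of same-numbered libraries correlated at -0.08 to 0.12, so the numbers were not taken as pairing the samples. With 2 libraries a group and unknown depth, small differences could not be resolved.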
